A study of Mus musculus with 30 samples.

Results

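Pericytes and vascular smooth muscle cells, together called mural cells, wrap the endothelium of small and large vessels. The 10 genes described here, Pdgfrb, Cspg4, Notch3, Rgs5, Kcnj8, Abcc9, Higd1b, Mcam, Heyl and Ndufa4l2, are commonly used to mark these cells. They were chosen by name, and all 10 were found among the 53715 genes of the 3 count tables, 1 for each tissue and stage. They were followed in all 6 groups of a mouse embryo series on Myocd, a cofactor of the factor SRF that switches on contractile genes of smooth muscle.

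The mutants were labelled Tbx4rtTAi/+; tetOcrei/+; MyocdF/F, with both Myocd alleles floxed, and the controls Tbx4rtTAi/+; tetOcrei/+; MyocdF/+, so the controls shared the transgenes and 1 floxed allele. The exception was control replicate 1 at E13.5, labelled MyocdF/F with no transgene. Cre was thus expected where a tetracycline-controlled activator is made from Tbx4, a gene of the lung and tracheal mesenchyme, and the labels do not say whether mural cells were among the cells that lost Myocd, nor when an inducer was given. Each library was made from a single lung or trachea. There were 5 mutant and 5 control lungs at E13.5 (all lobes), 6 mutant and 4 control lungs at E18.5 (right lobes), and 6 mutant and 4 control tracheas at E18.5. Total counts per library were 11.7 to 32.8 M reads, and polyadenylated RNA was sequenced.

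In the wall of a growing vessel, endothelial cells release PDGF-B, which recruits mural cells through the receptor encoded by Pdgfrb. Contact with endothelium activates NOTCH3 on mural cells, which turns on target genes such as Heyl. Mural cells also carry an ATP-sensitive potassium channel, made of the pore KIR6.1 (Kcnj8) and the regulatory subunit SUR2 (Abcc9), which couples metabolism to vessel tone.

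The E18.5 tissues matched their labels. Summed markers of lung epithelium (Sftpc, Sftpb, Nkx2-1, Ager, Scgb1a1 and Foxj1, the last 2 from airway cells and higher in the trachea) were 1909 to 4684 counts per M (CPM) in mutant tracheas and 12020 to 15430 CPM in mutant lungs at E18.5, and 2682 to 3376 CPM in control tracheas and 13490 to 15690 CPM in control lungs. At E13.5 the same sum was 219.8 to 315.8 CPM in mutant and 242 to 320.2 CPM in control lungs, with Scgb1a1 at 0. It is thus no check of the E13.5 lungs. Summed cartilage markers were 3700 to 13210 CPM in mutant tracheas and 10820 to 16680 CPM in control tracheas, and no lung library exceeded 332.8 CPM. Myocd itself averaged 10.6 ± 3.21 CPM in mutants and 13.03 ± 3.997 CPM in controls at E13.5 (SD, n = 5 each), 7.24 ± 1.88 and 9.26 ± 2.52 CPM in E18.5 mutant and control lungs, and 5.63 ± 1.998 and 4.77 ± 2.95 CPM in mutant and control tracheas (n = 6 and 4). The counts cover the whole gene and the labels do not say which part was floxed, so they do not check the genotype. Some contractile genes do differ between the labelled groups, on a list chosen with earlier results of these data known. Of 11 on the list, 5 fell in mutant lungs at E13.5, 2 at E18.5 and 3 in mutant tracheas. Synpo2 fell in all 3 (edgeR log2 fold change -1.47, -0.58 and -1.59), and Des was called in none. Acta2 had 144 ± 33.1 CPM in mutants and 332 ± 32.5 CPM in controls at E13.5 (edgeR log2 fold change -1.20, adjusted p = 0.0065). It was not called in E18.5 lungs (-0.08) or tracheas (-1.85, edgeR adjusted p = 0.57).

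Promoters of 4 members are shown because the 2 channel genes rose between stages in both genotypes whereas Notch3 and Rgs5 were called in neither. Each runs from 250 bases before to 50 bases after the RefSeq start on GRCm38.p6. RefSeq promoters of 6 of the 10 members were at hand. Capitals mark TGGGAA, the core letters bound by RBPJ, the DNA-binding partner of Notch, and GGGCGG, the GC box, each searched on both strands and not overlapping here. Kcnj8 lies at chr6:142571565-142571864, Abcc9 at chr6:142702225-142702524 and Notch3 at chr17:32166841-32167140, all on the minus strand, and Rgs5 at chr1:169655251-169655550 on the plus strand.
Kcnj8: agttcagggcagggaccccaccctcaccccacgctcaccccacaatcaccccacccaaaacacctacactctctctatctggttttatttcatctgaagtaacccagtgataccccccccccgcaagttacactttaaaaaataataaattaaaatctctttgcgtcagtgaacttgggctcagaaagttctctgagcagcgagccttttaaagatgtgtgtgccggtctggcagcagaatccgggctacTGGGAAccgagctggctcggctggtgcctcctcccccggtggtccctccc
Abcc9: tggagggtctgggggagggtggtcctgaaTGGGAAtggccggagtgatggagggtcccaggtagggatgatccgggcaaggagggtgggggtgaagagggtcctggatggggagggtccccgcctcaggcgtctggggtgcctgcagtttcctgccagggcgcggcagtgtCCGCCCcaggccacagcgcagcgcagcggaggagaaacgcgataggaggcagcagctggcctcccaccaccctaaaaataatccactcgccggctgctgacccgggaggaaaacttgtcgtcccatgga
Notch3: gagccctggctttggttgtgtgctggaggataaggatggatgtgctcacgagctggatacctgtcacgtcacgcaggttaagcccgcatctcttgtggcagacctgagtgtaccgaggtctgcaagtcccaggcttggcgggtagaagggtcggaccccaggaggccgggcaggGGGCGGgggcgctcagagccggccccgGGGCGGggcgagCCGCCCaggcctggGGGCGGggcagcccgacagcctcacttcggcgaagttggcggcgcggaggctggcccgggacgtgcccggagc
Rgs5: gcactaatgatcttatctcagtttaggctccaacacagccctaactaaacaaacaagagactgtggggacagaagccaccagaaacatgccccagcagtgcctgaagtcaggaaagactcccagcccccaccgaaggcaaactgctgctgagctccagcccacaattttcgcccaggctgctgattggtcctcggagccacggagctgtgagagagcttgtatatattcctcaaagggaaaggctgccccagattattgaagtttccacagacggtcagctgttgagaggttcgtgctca
Kcnj8 and Abcc9 are neighbours in the same direction, with 16247 bases between the annotated end of Abcc9 and the start of Kcnj8. TGGGAA was found in both channel promoters, beginning at the start site in Kcnj8 and at -221 in Abcc9, and in none of the other 4 (Cspg4, Notch3, Rgs5, Mcam). It occurs in 25.56% of 32851 RefSeq promoters of this length. GGGCGG was found at 4 places in Notch3, 1 in Abcc9, 2 in Cspg4 and 5 in Mcam, and in 35.66% of all promoters. The CArG box, bound by SRF, was found in none of the 6 and in 1.629% of all. These are matches of letters only.

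Loss of Myocd was tested first, since it is the comparison the series was made for. No member passed the test in any of the 3 tissues. Values are CPM on library sizes scaled by TMM, and a gene was called at an edgeR quasi-likelihood p, adjusted over all genes tested, under 0.05. At E13.5, 0 of the 9 members tested were called, where 0.206% of all genes were. Higd1b was too low there to be tested, with 0 to 5 reads per library in mutants and 1 to 5 in controls. At E18.5, 0 of 10 were called in the lung, against 0.584% of all genes, and 0 of 10 in the trachea, against 0.071%. The median log2 fold change of the members was -0.09, 0.04 and -0.10 in E13.5 lung, E18.5 lung and trachea, and that of all genes 0.01, 0.00 and 0.02. Without adjustment, 0, 1 and 2 members had p under 0.05, and DESeq2 also called none. Leaving out E13.5 control replicate 1, the control without transgenes, changed no call of a member. In these whole tissues, fewer cells of a type and less RNA per cell cannot be told apart.

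Pdgfrb, the PDGF receptor, was bounded more closely in the lung at E18.5 than in the trachea. In the lung it had 327.3, 361.9 and 410.2 CPM (lowest, median, highest of 6) in mutant lungs, against 405.7, 383.8, 317.7 and 351.8 CPM in control lungs. The groups overlapped fully. Its log2 fold change was 0.00 ± 0.07 (SE), with a 95% confidence interval from -0.16 to 0.16. In the trachea it had 130.1, 169.6 and 185.1 CPM in mutants, against 202.6, 146.8, 203.9 and 215.0 CPM in controls, and the interval of -0.47 to 0.06 leaves room for a larger fall. Mcam, an adhesion molecule of mural cells and endothelium, had intervals of -0.37 to 0.13 at E13.5, -0.10 to 0.18 in E18.5 lung and -0.58 to 0.05 in the trachea.

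Heyl and Cspg4 were the members with p under 0.05 before adjustment. Heyl, the Notch target, had 43.5, 50.6 and 57.1 CPM in mutant lungs at E18.5, against 30.3, 56.4, 38.4 and 37.5 CPM in control replicates 1 to 4. The mutant libraries lay above 3 of the 4 controls, and control replicate 2 lay within their range. The log2 fold change was 0.29 ± 0.14 (edgeR adjusted p = 0.53). Without control replicate 2 it was 0.49 and was called (adjusted p = 0.0283), and over the 10 fits that leave out 1 library each it was the only member called. In the trachea Heyl had 20.5, 22.0 and 34.6 CPM in mutants, against 16.8, 22.5, 17.6 and 19.2 CPM in controls, a log2 fold change of 0.38 ± 0.18 (edgeR adjusted p = 0.73), and at E13.5 its value was -0.20 ± 0.15.

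Cspg4 encodes NG2, a proteoglycan of pericytes that is also known from cartilage and glial progenitors. It had 110.8, 142.7 and 167.1 CPM in mutant tracheas, against 159.7, 156.2, 202.1 and 197.1 CPM in control tracheas. Both groups met between 156.2 and 167.1 CPM, and the lowest value was that of mutant replicate 4, a library described below. The log2 fold change was -0.29 ± 0.13 (edgeR adjusted p = 0.73). Over the fits that leave out 1 library each it was -0.35 to -0.24, with no call. The summed cartilage markers moved with Cspg4, with medians of 5890 CPM in mutant and 14520 CPM in control tracheas. None of the 8 cartilage markers was called, and their part in the value of Cspg4 was not tested.

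**Figure D1:**
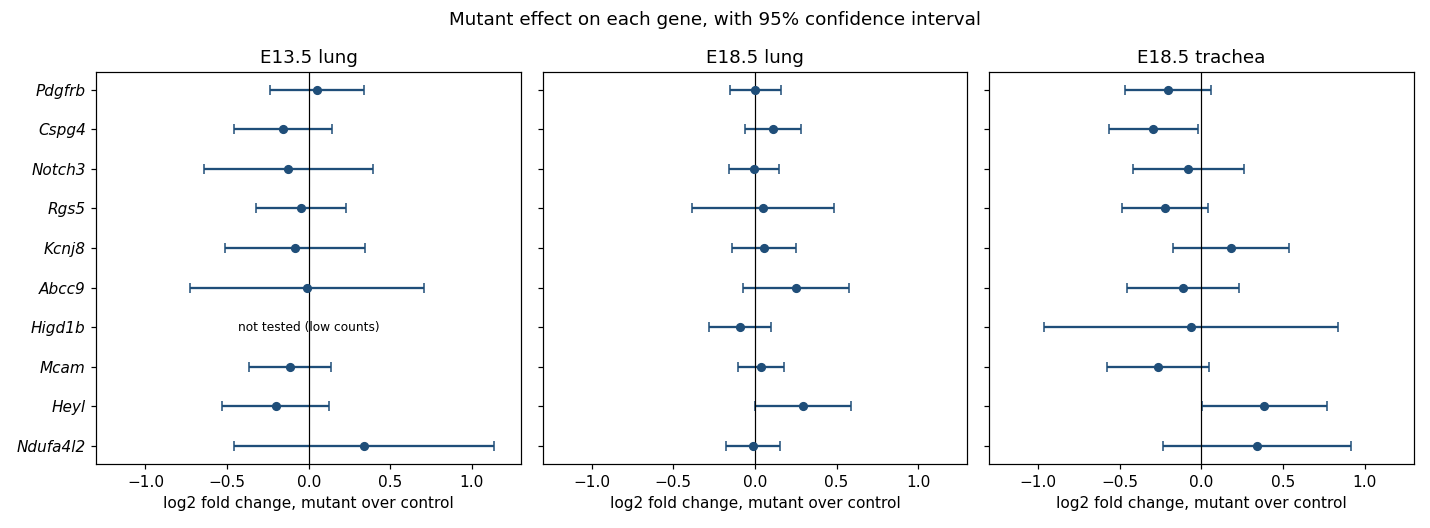
Log2 fold change of each gene, mutant over control, in the 3 tissues (x axis), with points for the edgeR estimate and bars for its 95% confidence interval. All but 3 intervals include 0, and those 3, of Heyl in lung and trachea at E18.5 and Cspg4 in trachea, did not pass adjustment over all genes.

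Notch3 was steady in every E13.5 library but 1. It had 81.8, 235.9, 252.4, 252.7 and 253.8 CPM in mutant replicates 1 to 5, against 233.6, 221.9, 238.5, 240.4 and 244.0 CPM in control replicates 1 to 5. The log2 fold change was -0.12 ± 0.24 with all libraries and 0.08 without mutant replicate 1, with no call either way. The other Notch receptors were low in that library too. Notch1 had 26.9 CPM there and 67.9 to 131.8 CPM in the other 4 mutants, and Notch2 had 116.7 CPM there and 153.3 to 185.1 CPM in the others.

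That library stood apart as a whole. Genes with a longest transcript over 5000 bases and at least 55% GC (369 genes) had a median log2 deviation of -0.54 in it, against -0.07 to 0.09 in the other 9 E13.5 libraries. Genes under 1500 bases (1112 genes) were at 0.56, against -0.09 to 0.07. Notch3 belongs to the long, GC-rich class, with a transcript of 8016 bases at 59.6% GC. Cspg4 does too (8121 bases, 59.2% GC), and was lowest in that library, at 19.9 CPM, against 26.5 to 39.1 CPM in the other 9. Ndufa4l2, with a transcript of 994 bases, was highest in the same library, at 4.72 CPM, against 1.43 to 2.46 CPM in the other mutants and 0.97 to 3.13 CPM in controls. These gene classes were chosen after the values were seen, and their part in the values of these members was not tested.

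The trachea had 1 such library, mutant replicate 4. Ndufa4l2 had 120.6, 156.6 and 360.3 CPM in mutant tracheas, against 157.5, 134.9, 130.8 and 167.8 CPM in controls. The highest value was that of replicate 4, and the other 5 mutants, at 120.6 to 162.9 CPM, lay within or just below the controls. In that library genes under 1500 bases were at 0.40, against -0.08 to 0.20 in the other 9, and long GC-rich genes at -0.18, against -0.11 to 0.12. The log2 fold change of Ndufa4l2 was 0.34 ± 0.27, and 0.02 without replicate 4. The part of the library profile was not tested.

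**Figure D2:**
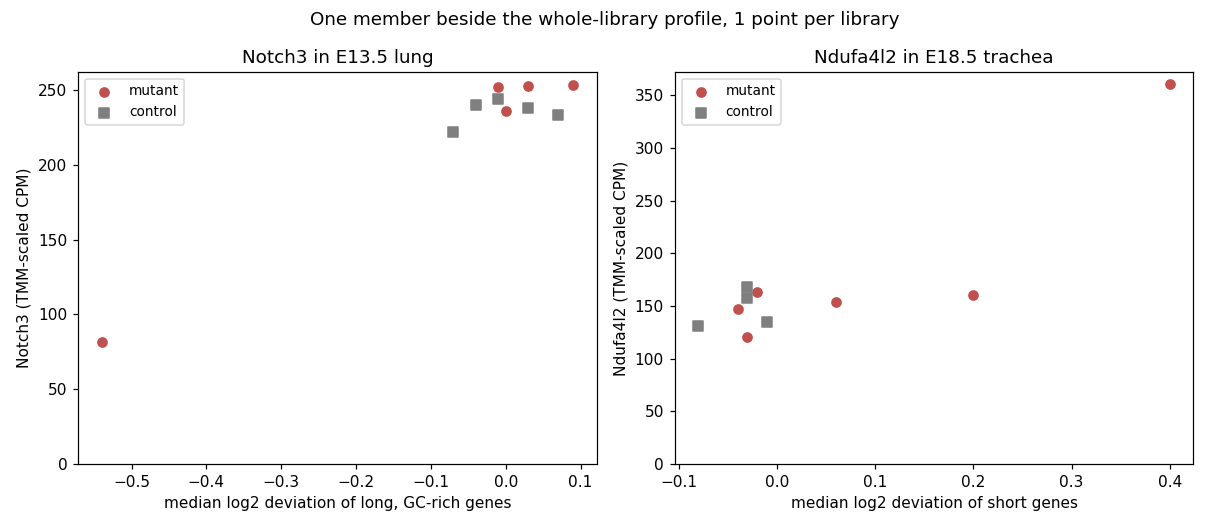
Left, Notch3 (CPM, y axis) against the median log2 deviation of long, GC-rich genes (x axis) in the 10 E13.5 lung libraries; right, Ndufa4l2 against that of genes under 1500 bases in the 10 tracheas, 1 point per library, mutants as circles and controls as squares. The mutant at -0.54 is the one with 81.8 CPM of Notch3, and the mutant at 0.40 is the one with 360.3 CPM of Ndufa4l2.

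The genes around these members did not pass the test of genotype either. None of 12 other mural cell genes, 5 genes of PDGF ligands and the alpha receptor, 15 other Notch pathway genes, 10 genes of angiopoietin, S1P and TGF-beta signals, 11 hypoxia response genes or 12 endothelium markers was called in any of the 3 tissues. Of all genes, 0.206%, 0.584% and 0.071% were called in E13.5 lung, E18.5 lung and trachea. All 11 hypoxia response genes lay below 0 in mutants at E13.5. Among them Egln3 (log2 fold change -0.53 ± 0.13, edgeR adjusted p = 0.32), Bnip3, Slc2a1, Pdk1, Ankrd37 and Car9 had p under 0.05 before adjustment. Ednra, the endothelin receptor, had 254 ± 23.0 CPM in mutants and 264 ± 10.9 CPM in controls at E13.5 (n = 5 each). Gucy1a1, a subunit of the nitric oxide receptor, had 419 ± 29.7 CPM in mutant lungs and 459 ± 28.6 CPM in control lungs at E18.5 (n = 6 and 4). Pecam1, the endothelial adhesion molecule, had 110 ± 10.9 CPM in mutant and 120 ± 13.1 CPM in control tracheas.

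The effect of genotype was then compared between tissues and between stages. It differed for 0 of 9 members between E18.5 and E13.5 lung, where 0.0268% of all genes differed, and for 0 of 10 between E18.5 trachea and lung, where 0.0252% did. Higd1b is left out of the first count, since its few reads at E13.5 gave an interval of -1.52 to 0.86 on the log2 scale. Of the first kind, the member with p under 0.05 before adjustment was Heyl, at 0.49 ± 0.21 on the log2 scale (edgeR adjusted p = 0.80), and of the second kind Cspg4, at -0.36 ± 0.16 (edgeR adjusted p = 0.67).

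Between E13.5 and E18.5 the members did not move as a block. In both genotypes 7 of the 10, Pdgfrb, Cspg4, Kcnj8, Abcc9, Higd1b, Mcam and Ndufa4l2, rose in the lung. Their E18.5 and E13.5 libraries did not overlap, which was not counted over all genes. Higd1b is included here and in the medians below. It passed the filter on low counts only through E18.5, so its call could only be a rise and adds no support. Notch3 and Rgs5 were not called, and Heyl was at -0.03 ± 0.14 on the log2 scale in mutants, with no call, and fell in controls, at -0.53 ± 0.16 (edgeR adjusted p = 0.0047). The 2 stage differences of Heyl did not differ past adjustment in the test given above. The background is high: 37.2% of all genes rose and 38.4% fell with stage in mutants, and 37.4% rose and 37.3% fell in controls. The median log2 fold change of the members was 1.94 in mutants and 1.73 in controls, and that of all genes -0.02 and -0.01. Stage goes together with lobe, since all lobes were taken at E13.5 and right lobes at E18.5, and with the count table, so these cannot be told apart.

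Higd1b, which encodes a small mitochondrial protein and marks lung pericytes in mice, went furthest. In mutants it had 51.9, 60.9 and 73.3 CPM (lowest, median, highest) at E18.5, against 0.29, 0.00, 0.04, 0.14 and 0.19 CPM at E13.5. In controls it had 62.8, 65.6, 64.1 and 72.9 CPM at E18.5, against 0.03, 0.07, 0.08, 0.15 and 0.20 CPM at E13.5. The E13.5 values rest on 15 reads over the 5 mutant libraries and 14 over the 5 control libraries, so Higd1b was near the limit of detection there and passed the filter on low counts through E18.5. The depth-scaled ratio of summed reads was 502.9 in mutants (95% interval 304.8 to 899) and 624.7 in controls (372.1 to 1143), intervals that cover counting error only. Its relative Higd1a, a hypoxia-induced gene, had 36.4 ± 4.56 CPM at E18.5 and 37.2 ± 10.2 CPM at E13.5 in mutants.

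Ndufa4l2 encodes a mitochondrial protein induced by HIF-1. In mutants it had 68.5, 78.2 and 82.3 CPM at E18.5, against 4.72, 1.94, 1.43, 2.38 and 2.46 CPM at E13.5, a log2 fold change of 4.95 ± 0.24 (edgeR adjusted p = 8.17e-15). In controls it had 75.7, 76.1, 68.9 and 91.7 CPM at E18.5, against 3.13, 0.97, 1.08, 2.35 and 2.52 CPM at E13.5, a log2 fold change of 5.28 ± 0.25. Its relative Ndufa4, a subunit of cytochrome c oxidase, fell, to 73.1 ± 7.46 CPM at E18.5, against 160 ± 51.5 CPM at E13.5 in mutants (log2 fold change -1.12), and to 65.3 ± 6.79 CPM, against 139 ± 4.52 CPM, in controls (-1.07). Per length, the ratio of Ndufa4l2 to Ndufa4 was 1.17 to 1.47 at E18.5 and 0.012 to 0.024 at E13.5 in mutants, and 1.298 to 1.79 at E18.5 and 0.009 to 0.028 at E13.5 in controls. The order of the 2 paralogs turned over between the stages. Of 11 hypoxia response genes, 7 rose and 3 fell in mutants and 6 rose and 3 fell in controls. Among them Vegfa, the endothelial growth factor, rose to 948 ± 76.3 CPM at E18.5, against 171 ± 29.0 CPM at E13.5 in mutants. The sum of the 11 genes, Vegfa included, was 1499 to 1824 CPM at E18.5 and 1153 to 1457 CPM at E13.5 in mutants. That step is smaller than the step of Vegfa alone, so Vegfa does not stand for the list.

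The 2 subunits of the potassium channel both rose, Abcc9 more than Kcnj8. Abcc9 had 92.8, 106.5 and 164.3 CPM in mutants at E18.5, against 6.01, 6.89, 4.74, 10.7 and 11.8 CPM at E13.5, a 14.01-fold rise (95% interval 9.21 to 21.3). In controls it had 89.9, 89.7, 115.2 and 85.3 CPM at E18.5, against 11.1, 3.13, 6.79, 11.5 and 8.43 CPM at E13.5, an 11.7-fold rise (7.63 to 18.03). Kcnj8 had 37.3, 40.9 and 45.8 CPM in mutants at E18.5, against 9.43, 6.56, 7.03, 10.4 and 9.64 CPM at E13.5, a 4.83-fold rise (3.87 to 6.03). Its rise in controls was 4.39-fold (3.48 to 5.53). The intervals of the 2 genes do not overlap in either genotype. Per length, Abcc9 relative to Kcnj8 was 0.71 to 1.14 at E18.5 and 0.19 to 0.37 at E13.5 in mutants, and 0.56 to 0.89 at E18.5 and 0.18 to 0.33 at E13.5 in controls. Higd1b, Abcc9 and Ndufa4l2 were thus the members with the largest rises.

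RNA of Mcam, Cspg4 and Pdgfrb rose by smaller factors than that of Abcc9. Mcam had 462.5, 534.4 and 551.8 CPM in mutants at E18.5, against 135.3, 128.6, 136.7, 159.0 and 180.1 CPM at E13.5 (3.55-fold, 3.08 to 4.09). Cspg4 rose 4.13-fold in mutants (3.50 to 4.88) and 3.44-fold in controls (2.89 to 4.10). Pdgfrb had 405.7, 383.8, 317.7 and 351.8 CPM in controls at E18.5, against 237.4, 156.3, 205.1, 192.0 and 192.1 CPM at E13.5 (1.88-fold, 1.59 to 2.22). Its rise in mutants was 1.81-fold (1.55 to 2.11). Its ligand Pdgfb rose more, to 133 ± 10.8 CPM at E18.5, against 35.5 ± 5.17 CPM at E13.5 in mutants (log2 fold change 1.91), and to 125 ± 3.36 CPM, against 37.4 ± 4.798 CPM, in controls (1.76). Pdgfc, another ligand of the family, fell in both (-3.48 and -3.37), while the remaining 3 of 5 genes of this list rose.

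Endothelium markers moved with these rises. All 12 rose in both genotypes, with a median log2 fold change of 1.78 in mutants and 1.77 in controls, and their summed level was 3892 to 4353 CPM at E18.5 and 1109 to 1318 CPM at E13.5 in mutants, and 4039 to 4392 CPM and 1055 to 1314 CPM in controls. Pdgfrb rose less than Pecam1, so that per length the ratio of Pdgfrb to Pecam1 was 0.54 to 0.66 at E18.5 and 1.11 to 1.55 at E13.5 in mutants, and 0.54 to 0.60 at E18.5 and 1.12 to 1.39 at E13.5 in controls. The members summed per length over the 12 endothelium markers overlapped between stages, in mutants only through E13.5 replicate 1, the library that stood apart. That ratio was 0.45 to 0.47 at E18.5 and 0.38 to 0.53 at E13.5 in mutants. The 0.38 is that of replicate 1, and the other E13.5 mutants, at 0.49 to 0.53, lay above the E18.5 mutants. In controls it was 0.43 to 0.47 at E18.5 and 0.46 to 0.53 at E13.5, with the stages meeting only between 0.463 and 0.473. Summed cardiac muscle markers were 236.9 to 519.5 CPM at E18.5 and 18.2 to 41.7 CPM at E13.5 in mutants, with Nppa at 0 in all E18.5 lungs. The part of endothelium or cardiac muscle in the members' values was not tested.

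Notch3 and Rgs5 stayed within their spread. Notch3 had 204.7, 227.1 and 262.2 CPM in mutants at E18.5 and 81.8 to 253.8 CPM at E13.5, and in controls 222.4, 259.7, 207.9 and 232.2 CPM at E18.5 and 221.9 to 244.0 CPM at E13.5. Its stage difference was 0.10 (95% interval -0.26 to 0.47) in mutants and -0.02 (-0.42 to 0.39) in controls, and the sign in controls turned with other size factors (0.01). Rgs5, a regulator of G protein signalling that is abundant in pericytes of many organs, had 40.2, 58.1 and 74.9 CPM in mutants at E18.5, against 58.0, 62.1, 80.3, 77.4 and 61.9 CPM at E13.5. In controls it had 36.8, 64.8, 60.04 and 60.6 CPM at E18.5, against 61.6, 56.6, 79.6, 86.8 and 67.5 CPM at E13.5. The intervals of -0.56 to 0.09 in mutants and -0.69 to 0.03 in controls leave room for a fall. Rgs5 was called lower in controls without E13.5 control replicate 2 (-0.40, adjusted p = 0.0499) and in mutants with the replicate number as a block (-0.30, adjusted p = 0.0388).

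The genes around them mostly rose. Of 12 other mural cell genes, 11 rose and 1 fell in each genotype, led by Tinagl1, a matrix protein, at 265 ± 33.3 CPM at E18.5 and 17.2 ± 1.20 CPM at E13.5 in mutants, and Aoc3, a vascular amine oxidase, at 39.6 ± 4.56 and 1.17 ± 0.23 CPM. Of 15 other Notch pathway genes, 13 rose and none fell in each genotype. The leading 3 were Hey1, a Notch target (log2 fold change 2.28 in mutants and 2.27 in controls), the receptor gene Notch4 (2.06 and 1.87) and the ligand gene Dll4 (2.26 and 2.18), genes of the endothelial side of the pathway. Notch3 and Heyl, the receptor and target of the mural side, were not among the genes called higher.

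**Figure D3:**
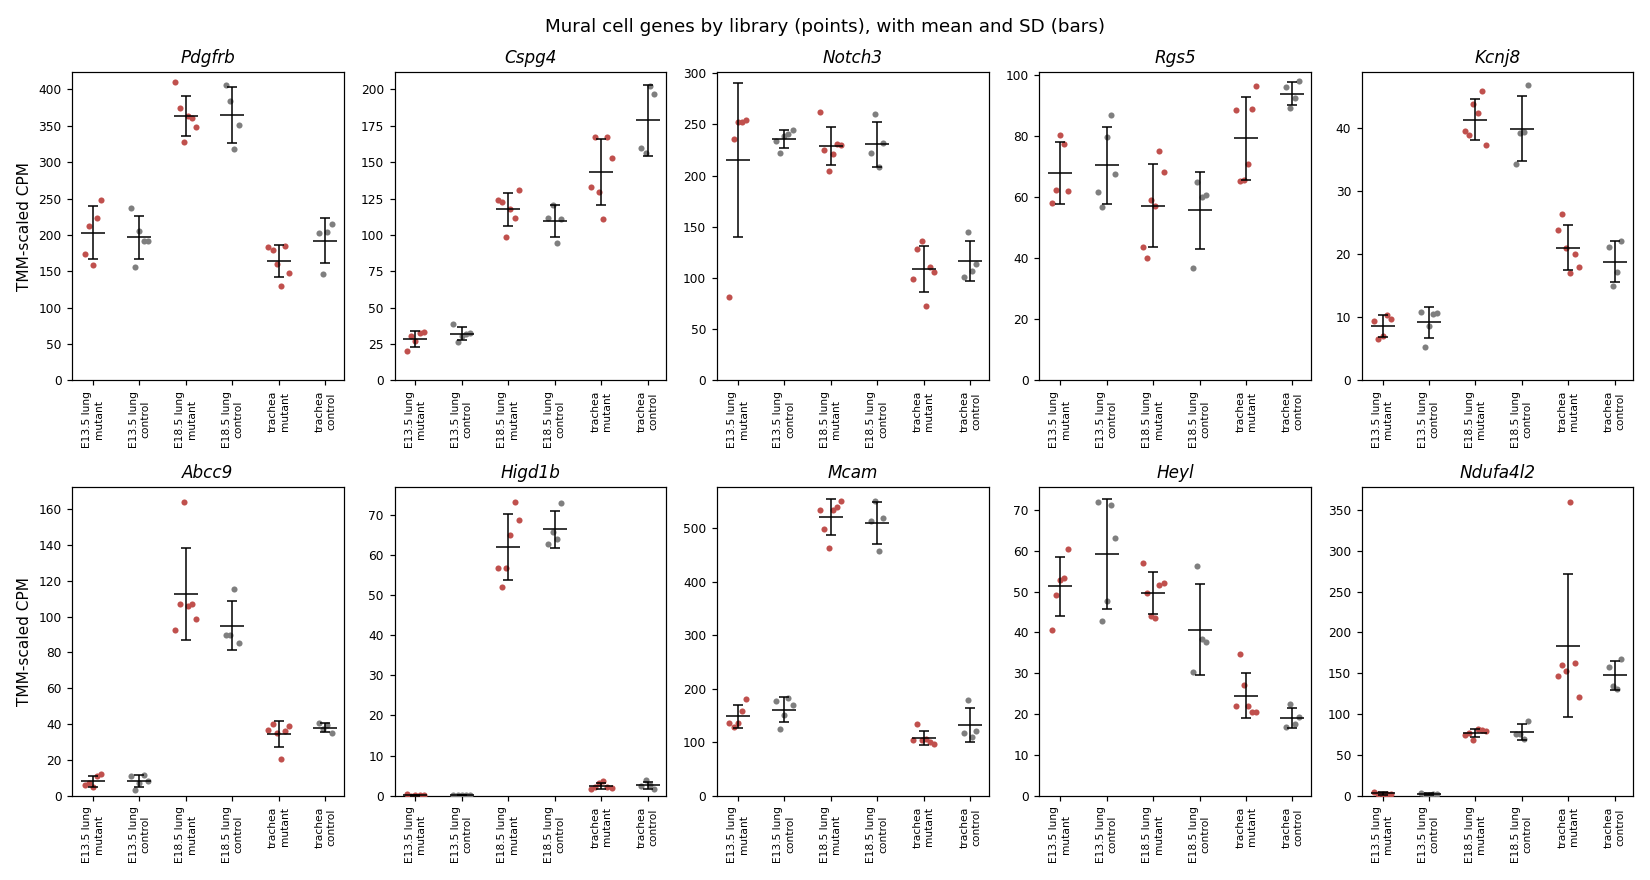
CPM of each gene (y axis, from 0, a scale of its own per panel) in every library, as points, by group, with black bars for the mean and SD. Higd1b is near 0 at E13.5 and at 51.9 to 73.3 CPM in E18.5 lungs, Notch3 is level between stages apart from 1 library at 81.8 CPM, and Cspg4, Rgs5 and Ndufa4l2 are highest in the trachea.

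Trachea and lung at E18.5 divided the members into 3 and 7. Cspg4, Rgs5 and Ndufa4l2 were higher in the trachea in both genotypes, and Pdgfrb, Notch3, Kcnj8, Abcc9, Higd1b, Mcam and Heyl were lower. All 10 members were called in each genotype. Among all genes, 31.7% were higher and 26.5% lower in mutant tracheas, and 24.5% higher and 24.6% lower in control tracheas. The median of the members was -0.98 in mutants and -1.02 in controls, and that of all genes 0.10 and 0.01. The 7 lower members did not overlap between tissues in either genotype, which was not counted over all genes.

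Higd1b again differed most. It had 1.59, 2.19 and 3.66 CPM in mutant tracheas, against 51.9, 60.9 and 73.3 CPM in mutant lungs, and was 25.0-fold lower (95% interval 19.3 to 32.6). It had 2.40, 3.80, 2.52 and 1.67 CPM in control tracheas, against 62.8, 65.6, 64.1 and 72.9 CPM in control lungs (26.2-fold lower, 19.02 to 36.2). Relative to Higd1a per length, it was at 0.09 to 0.21 in mutant tracheas and 4.86 to 6.93 in mutant lungs. Mcam had 97.0, 104.3 and 133.3 CPM in mutant tracheas, against 462.5, 534.4 and 551.8 CPM in mutant lungs (4.61-fold lower), and 116.9, 178.2, 108.9 and 120.9 CPM in control tracheas, against 513.8, 550.2, 456.5 and 519.1 CPM in control lungs (3.85-fold lower).

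Abcc9 had 20.3, 36.5 and 39.8 CPM in mutant tracheas, against 92.8, 106.5 and 164.3 CPM in mutant lungs (3.10-fold lower, 2.54 to 3.79), and 40.4, 37.2, 39.2 and 35.0 CPM in control tracheas, against 89.9, 89.7, 115.2 and 85.3 CPM in control lungs (2.49-fold lower, 1.95 to 3.17). Kcnj8 was 1.87-fold lower in mutant tracheas (1.58 to 2.22) and 2.10-fold lower in control tracheas (1.70 to 2.58). The paralogous channel genes went the other way. Abcc8, which encodes SUR1, had 96.6 ± 15.3 CPM in mutant tracheas and 2.88 ± 1.03 CPM in mutant lungs (log2 fold change 5.14 ± 0.19), and Kcnj11, which encodes KIR6.2, had 41.3 ± 6.01 and 2.65 ± 1.43 CPM (4.03 ± 0.22). The values in control tracheas and lungs were 98.7 ± 9.02 and 2.66 ± 0.50 CPM for Abcc8 and 33.7 ± 1.73 and 2.07 ± 0.41 CPM for Kcnj11.

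Notch3 and Heyl were lower together. Notch3 had 72.3, 108.1 and 136.4 CPM in mutant tracheas, against 204.7, 227.1 and 262.2 CPM in mutant lungs (2.004-fold lower, 1.70 to 2.37), and was 1.96-fold lower in controls. Heyl had 16.8, 22.5, 17.6 and 19.2 CPM in control tracheas, against 30.3, 56.4, 38.4 and 37.5 CPM in control lungs (2.12-fold lower), and was 1.93-fold lower in mutants. Of 15 other Notch pathway genes, 3 were higher and 10 lower in mutant tracheas, and 1 higher and 9 lower in control tracheas. Pdgfrb was 2.11-fold lower in mutant tracheas (1.84 to 2.43) and 1.89-fold lower in control tracheas (1.59 to 2.24).

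Of the 3 members that were higher, Ndufa4l2 had 120.6, 156.6 and 360.3 CPM in mutant tracheas, against 68.5, 78.2 and 82.3 CPM in mutant lungs, a log2 fold change of 1.33 ± 0.19 (edgeR adjusted p = 3.95e-06) that was 1.01 without mutant trachea replicate 4. In controls it had 157.5, 134.9, 130.8 and 167.8 CPM in the trachea, against 75.7, 76.1, 68.9 and 91.7 CPM in the lung (0.93 ± 0.23). Rgs5 had 95.9, 89.0, 92.5 and 97.9 CPM in control tracheas, against 36.8, 64.8, 60.04 and 60.6 CPM in control lungs (0.77 ± 0.18, edgeR adjusted p = 0.00092), with no overlap. In mutants it had 65.3, 79.6 and 96.5 CPM in the trachea and 40.2, 58.1 and 74.9 CPM in the lung (0.54 ± 0.15), with overlap. Cspg4 was higher by 0.36 ± 0.10 in mutant tracheas and 0.72 ± 0.12 in control tracheas.

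Markers of other cell types differed between the tissues. All 8 cartilage markers were higher in the trachea in both genotypes, with medians of 8.30 in mutants and 9.05 in controls on the log2 scale, and 7 of 8 skeletal muscle markers and 4 of 5 thyroid markers were higher too. Summed skeletal muscle markers were 19.8 to 3233 CPM in mutant tracheas and 36.2 to 2652 CPM in control tracheas, against at most 23.7 CPM in mutant lungs and 39.4 CPM in control lungs. Of 8 neural and glial markers, 7 were called in mutants, 6 of them higher in the trachea, and 8 in controls, 7 of them higher, with median log2 fold changes of 4.87 and 4.04. Their summed level was 158.0 to 251.4 CPM in mutant tracheas and 154.9 to 178.6 CPM in mutant lungs, and 188.4 to 254.6 CPM in control tracheas and 146.2 to 177.9 CPM in control lungs. All 5 airway epithelium markers were higher in both genotypes, and of 6 erythroid markers 5 were lower in mutant and 6 in control tracheas. Summed thyroid markers were 17.5 to 541.1 CPM in mutant tracheas and 5.64 to 629.7 CPM in control tracheas. All 12 endothelium markers were lower, with medians of -2.65 in mutants and -2.71 in controls, and their sum was 583.4 to 699.2 CPM in mutant and 576.5 to 663.3 CPM in control tracheas. The part of these cell types in the members' values, Cspg4 included, was not tested.

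Set against endothelium the order of the tissues turned over for Pdgfrb and for the summed members, but not for Higd1b. The log2 fold change of Higd1b, -4.65 in mutants and -4.71 in controls, lay below the endothelium medians given above. Per length, the ratio of Pdgfrb to Pecam1 was 1.497 to 2.01 in mutant tracheas and 0.54 to 0.66 in mutant lungs, and 1.57 to 2.06 in control tracheas and 0.54 to 0.60 in control lungs, although Pdgfrb itself was lower in the trachea. The summed RPKM (reads per kilobase and M) of the 10 members over that of the 12 endothelium markers was 1.61 to 2.75 in mutant tracheas and 0.45 to 0.47 in mutant lungs, and 1.84 to 1.99 in control tracheas and 0.43 to 0.47 in control lungs. The 2.75 is that of replicate 4, and the other mutant tracheas reached at most 2.03. Ndufa4l2 was the largest term of that sum in the trachea, at a mean of 168 RPKM in mutants, where the next member, Mcam, had 32.1 RPKM. Of 12 other mural cell genes, 2 were higher and 8 lower in each genotype. The subunits of the nitric oxide receptor were among the lowest, with Gucy1a1 at 17.4 ± 5.66 CPM in mutant tracheas and 419 ± 29.7 CPM in mutant lungs (log2 fold change -4.50), and Gucy1b1 at 12.2 ± 4.23 and 194 ± 18.3 CPM (-3.90).

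**Figure D4:**
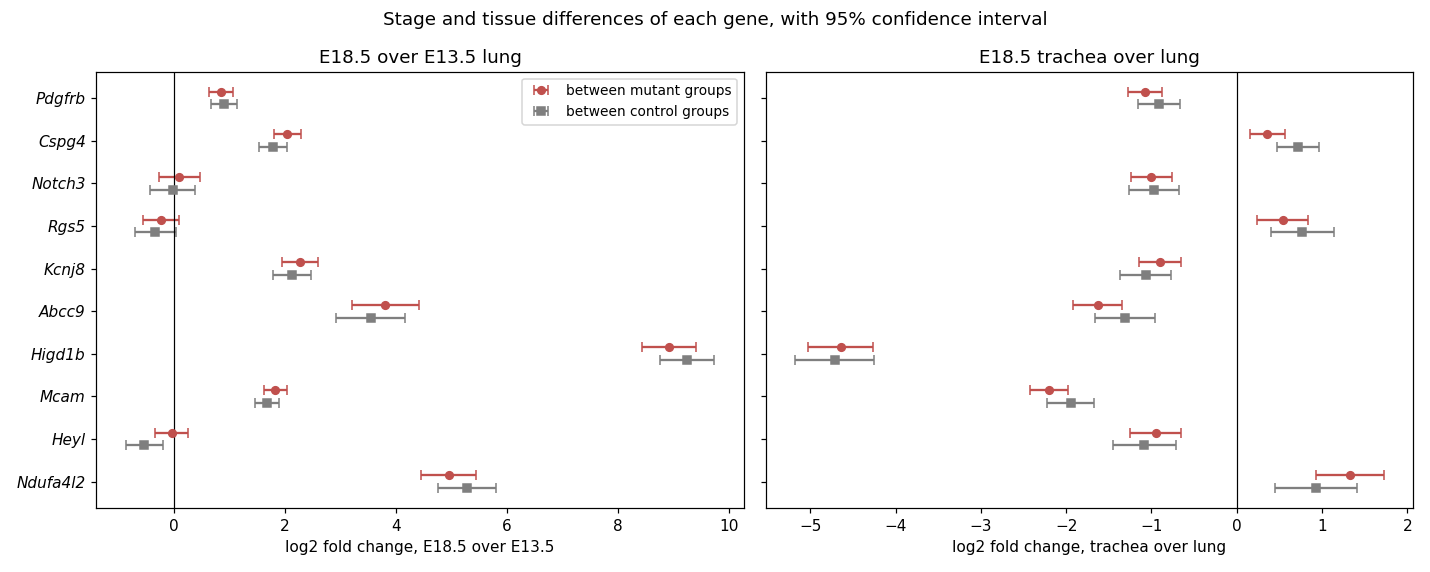
Log2 fold change of each gene (x axis) for E18.5 over E13.5 lung, left, and for E18.5 trachea over lung, right, between mutant groups (circles) and between control groups (squares), with 95% confidence intervals. The left side shows 7 genes above 0 in both genotypes with Higd1b at about 9, and the right side shows Cspg4, Rgs5 and Ndufa4l2 above 0 and 7 genes below.

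**Figure D5:**
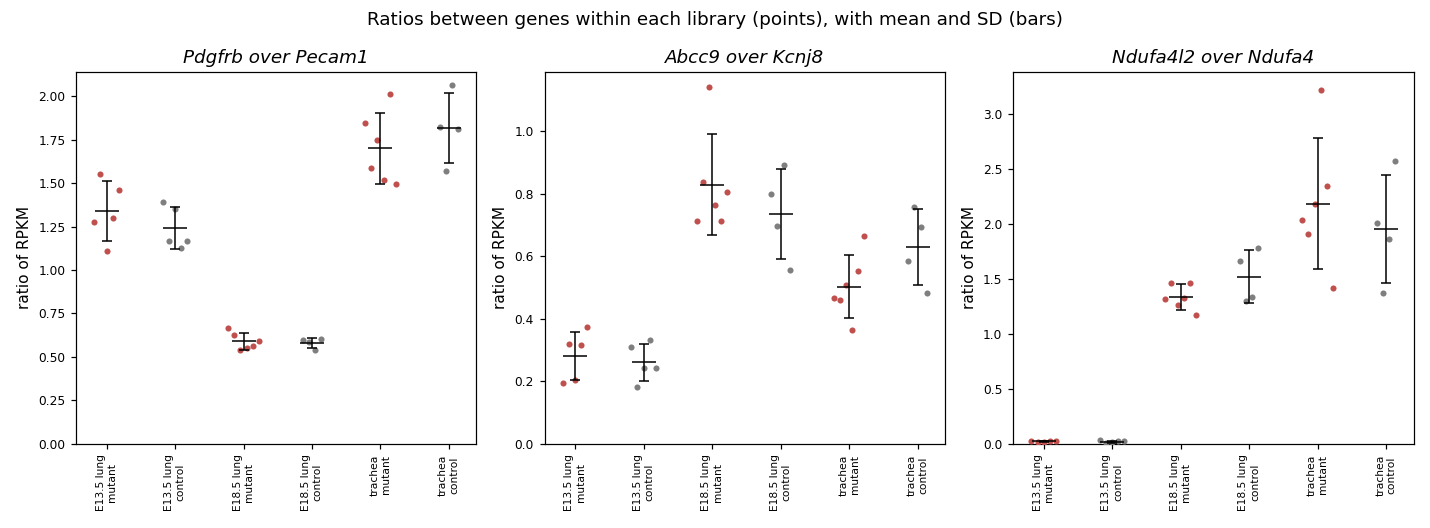
Ratios of RPKM within each library (points) by group, with mean and SD, for Pdgfrb over the endothelial gene Pecam1, Abcc9 over Kcnj8 and Ndufa4l2 over Ndufa4. Pdgfrb over Pecam1 is lowest in E18.5 lungs, at 0.54 to 0.66 in mutants and 0.54 to 0.60 in controls, whereas the group means of Abcc9 over Kcnj8 are highest there, with control lungs (0.56 to 0.89) overlapping control tracheas (0.48 to 0.76).

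Levels per length gave the members the same order in both genotypes at E13.5 and other orders at E18.5. At E13.5 Mcam led in both genotypes, with 44.2 ± 6.37 RPKM in mutants and 48.1 ± 7.01 RPKM in controls, followed by Pdgfrb (37.1 ± 6.65 and 35.9 ± 5.32 RPKM) and Notch3 (26.8 ± 9.32 and 29.3 ± 1.07 RPKM), each overlapping the next. Higd1b was last, at 0.16 ± 0.14 RPKM in mutants. In E18.5 lungs Mcam had 155 ± 9.97 RPKM in mutants and 152 ± 11.7 RPKM in controls, above all others. Higd1b was now second, at 73.3 ± 9.67 and 78.4 ± 5.34 RPKM, and its libraries overlapped those of Ndufa4l2 (70.3 ± 4.52 and 71.3 ± 8.81 RPKM). Pdgfrb followed, at 66.5 ± 5.05 RPKM in mutants, where it overlapped Higd1b, and at 66.6 ± 7.01 RPKM in controls, where its highest library (74.1 RPKM) lay just below the lowest of Higd1b (74.2 RPKM). In the trachea Ndufa4l2 led, at 168 ± 80.1 RPKM in mutants and 135 ± 16.2 RPKM in controls, above Mcam and Pdgfrb, which overlapped, and Higd1b was last again.

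The profile of each member over all 30 libraries was compared with those of the others, as log2 CPM centred on the gene's own mean. The closest pair was Notch3 and Heyl, with a root mean square difference of 0.35. Pdgfrb was nearest to Notch3 (0.49), Mcam to Pdgfrb (0.52), Kcnj8 to Pdgfrb (0.66), Cspg4 to Kcnj8 (0.70), Abcc9 to Kcnj8 (0.70) and Rgs5 to Pdgfrb (0.77). Higd1b and Ndufa4l2 were far from all, at 1.47 from Abcc9 and 1.65 from Cspg4. Of 12575 other genes with at least 5 CPM on average, the 5 nearest to the mean of the 10 profiles were Esyt1 (0.14), Inpp5k (0.16), Arhgap44 (0.16), Foxo3 (0.18) and Ttc38 (0.18). Each pair of members had many non-members nearer, from 135 for Heyl to 8121 for Rgs5.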

How the data were processed

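The deposited tables hold raw counts of single reads per gene, made by the authors with featureCounts 1.6.2 and GENCODE vM17, per the file headers, after STAR alignment to GRCm38, per the submitters' processing notes. The libraries do not mark strand and strand was not used, so reads of antisense partners cannot be told apart; 6.03% of the exon bases of Notch3 and at most 2.92% of those of any other member lie in another gene's exons. Symbols came from GENCODE vM21.

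Counts were tested with edgeR 4.0.16 (R 4.3.3; TMM, filterByExpr, robust quasi-likelihood F test, two-sided, Benjamini-Hochberg over all genes, threshold 0.05). Each mutant effect used its own 10 libraries; stage and tissue differences used 20. Variation between replicates (edgeR's common dispersion, as its square root) came to 0.140 for lungs at E13.5, 0.184 for lungs at E18.5 and 0.370 for tracheas. The procedure was also run on simulated data with known changes, and no result here rests on that run. Alternatives were other size factors, DESeq2 1.42.0, no filter, a replicate block and leaving out each library, with values for the members and counts of calls over all genes. Levels are CPM on TMM sizes over all 30 libraries; profiles used log2(CPM + 0.5).

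The members and the 17 other gene lists (141 genes) were chosen with earlier results of these data known. All members are named. From each other list described gene by gene, the rule names up to 3 called genes by smallest p, or else the 2 most abundant; marker lists of other tissues are given by sums. The library classes by length and GC, the ratios between genes and Higd1a were chosen after seeing the data.

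Trachea and lung libraries of 1 number at E18.5 deviated together (10 pairs, r = 0.114 to 0.300, over 12600 genes), so these numbers may pair them. The labels do not say that they do. The tissue tests and intervals in the Results did not use this pairing. Per the labels, every replicate is a separate lung or trachea.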

Additional observations from a re-analysis of the deposited data

Results flagged for a closer look

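In 7 of the 60 sets of 1 gene in 1 group, 1 library lay far from the others for the spread of the rest; chance marks about 1 set in 20. Notch3 had 81.81 CPM in E13.5 mutant lung replicate 1, with the other 4 at 235.9 to 253.8 CPM. Ndufa4l2 had 360.3 CPM in mutant trachea replicate 4, with the others at 120.6 to 162.9 CPM, and Abcc9 had 20.31 CPM in the same library, with the others at 34.95 to 39.77 CPM. Abcc9 was also high in replicate 3 of both E18.5 lung groups, at 164.3 CPM in the mutant (others 92.76 to 107.3 CPM) and 115.2 CPM in the control (others 85.34 to 89.94 CPM). Rgs5 had 36.83 CPM in E18.5 control lung replicate 1, with the others at 60.04 to 64.8 CPM. Mcam had 133.3 CPM in mutant trachea replicate 2, with the others at 96.99 to 105.9 CPM.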

How the results depend on the processing

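The counts of members called were 0 for each mutant effect and difference of effects, 7 and 8 for stage in mutants and controls, and 10 for tissue, under other size factors, DESeq2, no filter and the replicate block, apart from 8 for stage in mutants with the block, where Rgs5 was called (-0.305). Leaving out 1 library changed the count by over 1.5 times once: 1 member in E18.5 lung without control replicate 2, so that the range was 0 to 1. Calls over all genes moved more: for E13.5 lung, E18.5 lung and trachea they were 34, 102 and 13, with DESeq2 79, 262 and 99, with the replicate block 0, 73 and 28, with no filter 44, 192 and 22, and without 1 library 17 to 56, 26 to 205 and 3 to 16. The differences of the mutant effect had 5 and 5 calls for stage and tissue, with DESeq2 42 and 67, with the replicate block 1 and 5, and without 1 library 3 to 19 and 2 to 9.

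Members whose log2 value changed sign were uncalled in every fit that turned them. The block turned Abcc9 in E13.5 lung (0.0232), Rgs5 in E18.5 lung (-0.131), Higd1b in trachea (0.0287), Notch3 for stage in controls (0.0088) and Rgs5 for the stage difference of the effect (-0.0941). Other size factors (0.0128) and DESeq2 (0.0141) turned Notch3 for stage in controls, and no filter turned Pdgfrb in E18.5 lung (-0.00393). Leaving out 1 library gave ranges across 0 for the mutant effect in E13.5 lung of Pdgfrb -0.0302 to 0.131, Notch3 -0.19 to 0.084, Rgs5 -0.118 to 0.0304 and Abcc9 -0.22 to 0.135; in E18.5 lung of Pdgfrb -0.0627 to 0.0538, Notch3 -0.0557 to 0.0566, Rgs5 -0.108 to 0.131, Kcnj8 -0.0136 to 0.136, Mcam -0.0183 to 0.0733 and Ndufa4l2 -0.0744 to 0.0651; and in trachea of Notch3 -0.151 to 0.0506 and Higd1b -0.233 to 0.181. The ranges for stage were Notch3 -0.104 to 0.167 and Heyl -0.104 to 0.0316 in mutants and Notch3 -0.079 to 0.0652 in controls. Those for the difference of the effect were Pdgfrb -0.13 to 0.0283, Notch3 -0.0858 to 0.184, Rgs5 -0.0685 to 0.175 and Higd1b -0.643 to 0.0315 between stages, and Notch3 -0.102 to 0.103, Higd1b -0.111 to 0.274 and Heyl -0.0653 to 0.252 between tissues. The cause was not tested.

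Mutants and controls of 1 number did not all deviate together (r from -0.318 to 0.446), nor did stages (not every correlation was over 0.1). The block there thus rests on a shared number only. For trachea and lung the block changed no call of a member. Depth limits Higd1b at E13.5 (15 reads over the mutants and 14 over the controls) and low members at E13.5 such as Ndufa4l2 (35 to 80 reads per mutant library). Counting intervals cover counting error only.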
